A study of Mus musculus with 5 samples.

Results

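The genes described here encode amino acid transporters of the solute carrier (SLC) superfamily. They were chosen by symbol: every gene of families SLC1, SLC3, SLC7, SLC36, SLC38 and SLC43 in the deposited tables except Slc38a4, together with Slc6a9 and Slc6a14 of family SLC6. This gave 43 of the 24421 genes, of which 15 belong to SLC7, 10 to SLC38, 7 to SLC1, 4 to SLC36, 3 to SLC43, 2 to SLC3 and 2 to SLC6. RNA was sequenced from 5 mouse cell populations at 1 library each. MEFs were embryonic fibroblasts prepared from mid-gestation CF-1 embryos, iPSCs were an induced pluripotent stem cell line, and mESCs were untreated V6.5 embryonic stem cells. The other 2 libraries were V6.5 cells stably expressing a non-targeting control shRNA (NTC) or an shRNA against Gldc (shGldc), the decarboxylase of the glycine cleavage system. The column of the knockdown library is headed sh3, and which hairpin it stands for is not given in the sources used here. For the iPSCs and all V6.5 cells the labels give feeder-free culture in serum replacement medium with leukaemia inhibitory factor, beta-mercaptoethanol, GlutaMAX and pyruvate. The study's methods also describe culture of such cells on feeders in serum medium and do not say which culture gave the RNA. The MEFs grew in serum medium without these additions, and the study obtained the stem cell lines from other sources. Cell type, medium and origin of the cells therefore cannot be told apart between MEFs and the stem cells. With 1 library per condition there is no replicate error, and no difference below carries a test or a p-value.

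Amino acid transporters of the plasma membrane work largely as exchangers and cotransporters. The heavy chain encoded by Slc3a2 carries SLC7 light chains to the cell surface, where LAT1 trades intracellular glutamine for leucine and other large neutral amino acids. The glutamine itself enters through ASCT2 of SLC1 and the sodium-coupled SLC38 carriers, and arginine and lysine enter through the cationic transporters of SLC7. Several SLC36 and SLC38 proteins sit on the lysosome and take part in sensing amino acids for mTORC1, the kinase complex that couples nutrient supply to growth.

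Amino acid shortage is known to induce several of these genes through the transcription factor ATF4, which binds a composite C/EBP-ATF response element. The core of that element, TGATGNAA, was searched on both strands (TTNCATCA on the other) in RefSeq promoter windows of 300 bases, from 250 bases before to 50 after each annotated start. Of the 43 members, 32 had a window, and 3 of these genes (9.38%) held a match, beside 4.51% of all 27025 genes with a window. Members without a window, Slc7a5, Slc7a3 and Slc1a5 among them, were not searched, so nothing is said of the core in them. The matches lay in Slc7a11, Slc7a7 and Slc1a4, and the sequences around them are shown because these are the only member windows that hold the core. All 3 are on the minus strand of GRCm38.p6, and capitals mark the matches. The Slc7a11 stretch is chr3:50443614-50443719 and holds the core on both strands, beginning 66 and 47 bases before the start site.
Slc7a11: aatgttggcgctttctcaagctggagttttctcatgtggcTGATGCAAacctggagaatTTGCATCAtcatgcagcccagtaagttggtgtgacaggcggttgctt
The Slc7a7 stretch is chr14:54417938-54418125, with matches that begin 141 bases and 1 base before the start site used. Measured from another annotated start of the gene, the second match begins 243 bases upstream.
Slc7a7: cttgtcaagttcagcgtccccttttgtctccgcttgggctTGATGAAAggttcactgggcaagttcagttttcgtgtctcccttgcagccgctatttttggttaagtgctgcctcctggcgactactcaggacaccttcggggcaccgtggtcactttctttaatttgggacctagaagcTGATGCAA
The Slc1a4 stretch is chr11:20332710-20332757, with a match that begins 4 bases before the start site.
Slc1a4: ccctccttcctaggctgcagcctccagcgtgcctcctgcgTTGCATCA
These matches are descriptions of the letters in a window and were not tested for binding.

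Expression is given as FPKM, a count of fragments scaled to transcript length and to the mapped fragments of the library, in 2 tables made separately. The first table holds MEFs, iPSCs and mESCs, and the second holds NTC and shGldc. Gldc itself was at 74.7 FPKM in NTC and 2.07 in shGldc, or 2.77% of the control, and at 59.7 in mESCs. Steps between low values gave about 22100000 to 24600000 fragments for the libraries of the first table. For NTC and shGldc the steps fitted 14500000 or 29100000 fragments and 9600000 or 28900000 fragments, so their depth is not settled. Pluripotency markers summed to 3753 to 7023 FPKM in the stem cell libraries and to 3.28 in MEFs. Fibroblast markers summed to 7209 in MEFs and to 55.5 in mESCs, 0.769% of the MEF value, against at most 0.195% in the other stem cells. In mESCs, Col1a1 was at 20.5 FPKM and Col1a2 at 15.3. The MEF library also held macrophage markers (10 of 10 at 1 FPKM or more, sum 328). In bulk RNA, fewer cells of a type and less RNA per cell cannot be told apart.

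Of the 43 transporter genes, 30 reached 1 FPKM in at least 1 library, 23 in MEFs, 28 in iPSCs, 24 in mESCs, 23 in NTC and 24 in shGldc. Together the members summed to 598.1 FPKM in MEFs, 864.0 in iPSCs, 556.2 in mESCs, 619.3 in NTC and 444.7 in shGldc. These sums are 0.0823% (shGldc) to 0.150% (iPSCs) of all FPKM of a library. The most abundant 3 members, Slc7a5, Slc3a2 and Slc1a5 in MEFs and iPSCs, held 55.0% of the member sum in MEFs and 66.8% in iPSCs. SLC7 gave the largest share of the sum in each library, 34.4% in MEFs, 45.4% in iPSCs, 41.7% in mESCs, 49.6% in NTC and 33.9% in shGldc. This order rests on Slc7a5: among the 24 members that overlap no other annotated gene and share at most 10% of their 50-nt stretches with others, which leave out Slc7a5, SLC3 was largest at 35.9 to 43.3% and SLC7 held 14.4 to 24.1%. The share of SLC38 was lowest in iPSCs at 12.6% and highest in shGldc at 24.3%. SLC43 made up 1.3% of the sum in MEFs, 1.9% in mESCs, 2.0% in NTC, 2.9% in iPSCs and 6.4% in shGldc.

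**Figure D1:**
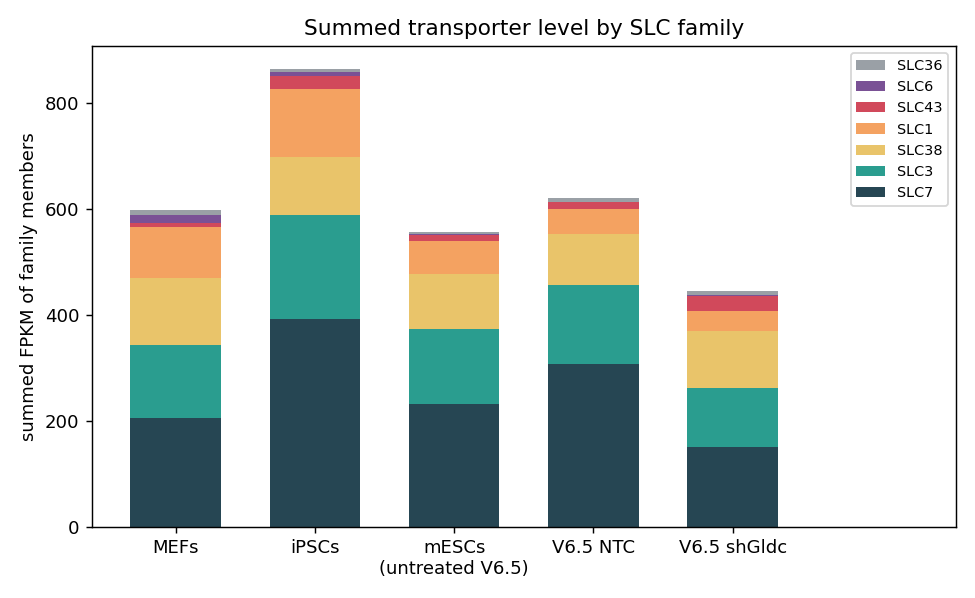
Stacked bars of the summed FPKM of the transporter genes in each of the 5 libraries, coloured by SLC family, with 1 library per bar. The iPSC bar is the highest at 864.0 FPKM and the shGldc bar the lowest at 444.7, and SLC7 and SLC3 form the largest blocks in all 5.

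Slc3a2 encodes 4F2hc (CD98), the heavy chain that the surface SLC7 light chains need, and lies at chr19:8706882-8723369 of mm10 on the minus strand. It was at 137 FPKM in MEFs, 195.9 in iPSCs, 140.3 in mESCs, 149.9 in NTC and 111 in shGldc. Its level lay at percentile 96.6 to 98.4 among all genes, and its highest and lowest level differed by less than 2-fold. Slc7a5, encoding the light chain LAT1 (chr8:121881150-121907694, minus strand), was at 140.4 FPKM in MEFs, 280.3 in iPSCs, 146 in mESCs, 193 in NTC and 90.9 in shGldc. LAT1 was thus the most abundant member in every library except shGldc, where Slc3a2 exceeded it. The level of Slc7a5 relative to Slc3a2 was 1.03 in MEFs, 1.04 in mESCs, 1.29 in NTC, 1.43 in iPSCs and 0.820 in shGldc. FPKM is per length, so the 2 levels can be set side by side, but a ratio of RNA levels is not a ratio of proteins.

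The remaining light chains ran at lower levels and in different orders. Slc7a6 encodes y+LAT2, which exports arginine in exchange for glutamine, and was at 11.9 FPKM in MEFs, 11.2 in iPSCs, 22.0 in mESCs, 23.3 in NTC and 17.9 in shGldc. Slc7a7 encodes y+LAT1, the basolateral exchanger that is mutated in lysinuric protein intolerance, and was at 4.56 FPKM in MEFs, 37.3 in iPSCs, 28.5 in mESCs, 22.4 in NTC and 13.8 in shGldc. Slc7a7 was therefore lowest in the MEF library. Macrophages express this gene, and macrophage markers were found in the MEF library. Between 1 and 2 of the 10 macrophage markers reached 1 FPKM in the stem cell libraries. The part of macrophages in the Slc7a7 values was not tested. Slc7a7 overlaps Oxa1l over 7.0% of its exon length, and reads of the pair cannot be told apart there, since the strand of the counting is not given in the sources used here.

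Slc7a8, encoding LAT2, an exchanger of large and small neutral amino acids, was at 2.13 FPKM in MEFs, 3.97 in iPSCs, 1.22 in mESCs, 3.49 in NTC and 7.29 in shGldc. Slc7a11 encodes xCT, which takes up cystine in exchange for glutamate and so feeds glutathione synthesis. Its level was 2.98 FPKM in MEFs, 0.232 in iPSCs, 0.738 in mESCs, 0.582 in NTC and 0.562 in shGldc, and it passed 1 FPKM only in MEFs. Beta-mercaptoethanol, listed for the stem cell medium and not for that of MEFs, is known to let cells take up cystine sulphur by other carriers, and its part in the difference was not tested. LAT1 made up 86.7% of the 6 light chains of 4F2hc (Slc7a5, Slc7a6, Slc7a7, Slc7a8, Slc7a10 and Slc7a11) in MEFs, 84.1% in iPSCs, 73.5% in mESCs, 79.5% in NTC and 69.7% in shGldc.

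The cationic amino acid transporters, which need no heavy chain, take up arginine, lysine and ornithine. Slc7a1 (CAT1, the widely expressed member) was at 21.7 FPKM in MEFs, 23.5 in iPSCs, 10.8 in mESCs, 22.0 in NTC and 6.93 in shGldc. Slc7a3 (CAT3, chrX:101079210-101086020, minus strand) was at 19.1 FPKM in MEFs, 31.5 in iPSCs, 18.8 in mESCs, 38.8 in NTC and 10.9 in shGldc. Slc7a2 (CAT2) was at 1.82, 1.67, 1.26, 1.68 and 0.785 FPKM in the same order. The sum of these 3 genes was lowest in shGldc at 18.6 FPKM and highest in NTC at 62.4, with 42.6 in MEFs, 56.7 in iPSCs and 30.9 in mESCs. Slc7a3 supplied 44.8% of it in MEFs and 55.6 to 62.1% in the stem cell libraries. Slc7a4, a CAT-related gene whose product has no settled substrate, was at 0.977 FPKM in MEFs, 2.68 in iPSCs, 2.16 in mESCs, 1.38 in NTC and 1.10 in shGldc. It overlaps P2rx6 over 13.3% of its exon length.

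In SLC1, the neutral exchangers were far more abundant than the glutamate transporters. Slc1a5 (ASCT2, the exchanger that brings in glutamine) was at 52.0 FPKM in MEFs, 101 in iPSCs, 49.0 in mESCs, 38.6 in NTC and 28.7 in shGldc. Slc1a4 (ASCT1, which carries serine, alanine and cysteine) was at 29.5 FPKM in MEFs, 21.5 in iPSCs, 9.14 in mESCs, 6.46 in NTC and 5.91 in shGldc. Slc1a5 was 1.76 times the level of Slc1a4 in MEFs and 4.69 to 5.97 times in the stem cell libraries. MEFs thus differed from the stem cells in the balance of the pair rather than in Slc1a5 alone.

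The glutamate and aspartate transporters of SLC1 each had a profile of its own. Slc1a6 (EAAT4, best known from cerebellar Purkinje cells) was at 12.1 FPKM in MEFs, 1.43 in iPSCs, 0.549 in mESCs, 0.665 in NTC and 1.09 in shGldc. Slc1a1 (EAAT3, of neurons and epithelia) was at 0.0110 FPKM in MEFs, 2.96 in iPSCs, 1.02 in mESCs, 0.905 in NTC and 1.33 in shGldc. The MEF value of Slc1a1 corresponds to about 1.03 fragments, under the floor of 3 fragments, a floor that covers counting error only. Slc1a3 (GLAST, the glial transporter) was at 2.76 FPKM in MEFs, 1.28 in iPSCs, 2.04 in mESCs, 0.754 in NTC and 0.0453 in shGldc. Of the transcript sequence of Slc1a1, 31.0% of 50-nt stretches also occur in transcripts of 4430402I18Rik, so its values are uncertain.

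The SLC38 carriers divide into system A, system N and less characterized members. Slc38a2 (SNAT2, a sodium-coupled importer of glutamine and alanine that responds to amino acid supply) was at 42.99 FPKM in MEFs, 18.9 in iPSCs, 24.5 in mESCs, 21.1 in NTC and 15.3 in shGldc. Slc38a1 (SNAT1), its neighbour on chromosome 15 at a distance of 44479 bases, was at 15.7, 12.1, 11.5, 11.8 and 10.4 FPKM in the same order. Both system A genes were thus highest in MEFs and lowest in shGldc, with a wider range for Slc38a2. The system N genes encode carriers that move glutamine, histidine and asparagine with sodium against protons. Slc38a3 (SNAT3, chr9:107650634-107669530, minus strand) was listed at 0 in MEFs, and was at 6.29 FPKM in iPSCs, 4.58 in mESCs, 6.25 in NTC and 1.16 in shGldc. Slc38a5 (SNAT5, chrX:8271133-8280179, plus strand) was listed at 0 in MEFs, and was at 2.90 FPKM in iPSCs, 1.02 in mESCs, 2.27 in NTC and 0.355 in shGldc. The system N pair was therefore found in the stem cell libraries only, and was lowest there in shGldc.

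Among the other SLC38 genes, Slc38a10 (SNAT10) and Slc38a7 (SNAT7, which exports glutamine and asparagine from the lysosome) were the most abundant. Slc38a10 was at 45.6 FPKM in MEFs, 43.2 in iPSCs, 43.5 in mESCs, 27.2 in NTC and 39.4 in shGldc, and Slc38a7 was at 19.6, 22.2, 17.7, 24.0 and 36.9 FPKM. Slc38a7 was highest in shGldc, and Slc38a10 was lowest in NTC. Slc38a9, the lysosomal arginine sensor of mTORC1, was at 0.602 FPKM in MEFs, 1.61 in iPSCs, 0.852 in mESCs, 0.549 in NTC and 1.13 in shGldc. Slc38a8 (SNAT8) was listed at 0 in MEFs, and was at 0.266 FPKM in iPSCs, 0.512 in mESCs, 0.717 in NTC and 2.60 in shGldc. Slc38a6 (SNAT6) was at 1.83, 1.36, 0.752, 1.18 and 0.815 FPKM from MEFs to shGldc, with 35.5% of its 50-nt stretches shared with Noct and Gm42860.

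SLC43 encodes facilitators that need neither sodium nor a heavy chain. Slc43a1 (LAT3, for branched-chain amino acids and phenylalanine) was at 3.25 FPKM in MEFs, 12.4 in iPSCs, 5.25 in mESCs, 5.32 in NTC and 11.01 in shGldc. Slc43a2 (LAT4, with similar substrates) was at 0.924, 4.54, 2.64, 3.91 and 8.23 FPKM in that order. Slc43a3, a relative whose product takes up purine bases, was at 3.30, 8.36, 2.79, 3.26 and 9.21 FPKM. All 3 were higher in iPSCs and shGldc than in MEFs, mESCs and NTC. Slc43a1 (chr2:84838850-84863594) and Slc43a3 (chr2:84936579-84958509) lie on the plus strand 72985 bases apart. Slc43a2 lies on chromosome 11 and overlaps Gm45606 and Mir3971 over 9.18% of its exon length. The level of Slc7a5 relative to the SLC43 sum was 18.8 in MEFs, 11.1 in iPSCs, 13.7 in mESCs, 15.5 in NTC and 3.19 in shGldc.

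The last group holds the proton-coupled carriers and the glycine transporter. Slc36a1 (PAT1, a lysosomal exporter of small amino acids) was at 7.28 FPKM in MEFs, 4.30 in iPSCs, 3.48 in mESCs, 5.11 in NTC and 6.75 in shGldc. Slc36a4 (PAT4) was at 3.62, 1.07, 0.771, 0.532 and 0.514 FPKM in that order, and so was highest in MEFs. Slc6a9 encodes GLYT1, the sodium and chloride-coupled importer of glycine, the substrate of the enzyme encoded by Gldc. It was at 14.6 FPKM in MEFs, 7.27 in iPSCs, 1.95 in mESCs, 1.19 in NTC and 1.91 in shGldc, an order opposite to that of Gldc between MEFs and stem cells. Slc6a9 shares 26.3% of its 50-nt stretches with Ccdc24 and Gm17114, which overlap it.

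The other 13 members stayed under 1 FPKM in all libraries, with the highest value, 0.469 FPKM, for Slc6a14 in shGldc. Slc6a14 encodes a broad carrier of neutral and cationic amino acids. Slc7a12 and Slc7a13 were listed at 0 in all 5. Slc1a2, Slc1a7, Slc7a14, Slc7a15 and Slc38a11 stayed at or below 0.0530 FPKM. Slc3a1 reached 0.110 FPKM in MEFs and was listed at 0 elsewhere, while its light chain partner Slc7a9 was at 0 to 0.403 FPKM. Slc7a10 reached 0.185, Slc36a2 0.399 and Slc36a3 0.180 FPKM.

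**Figure D2:**
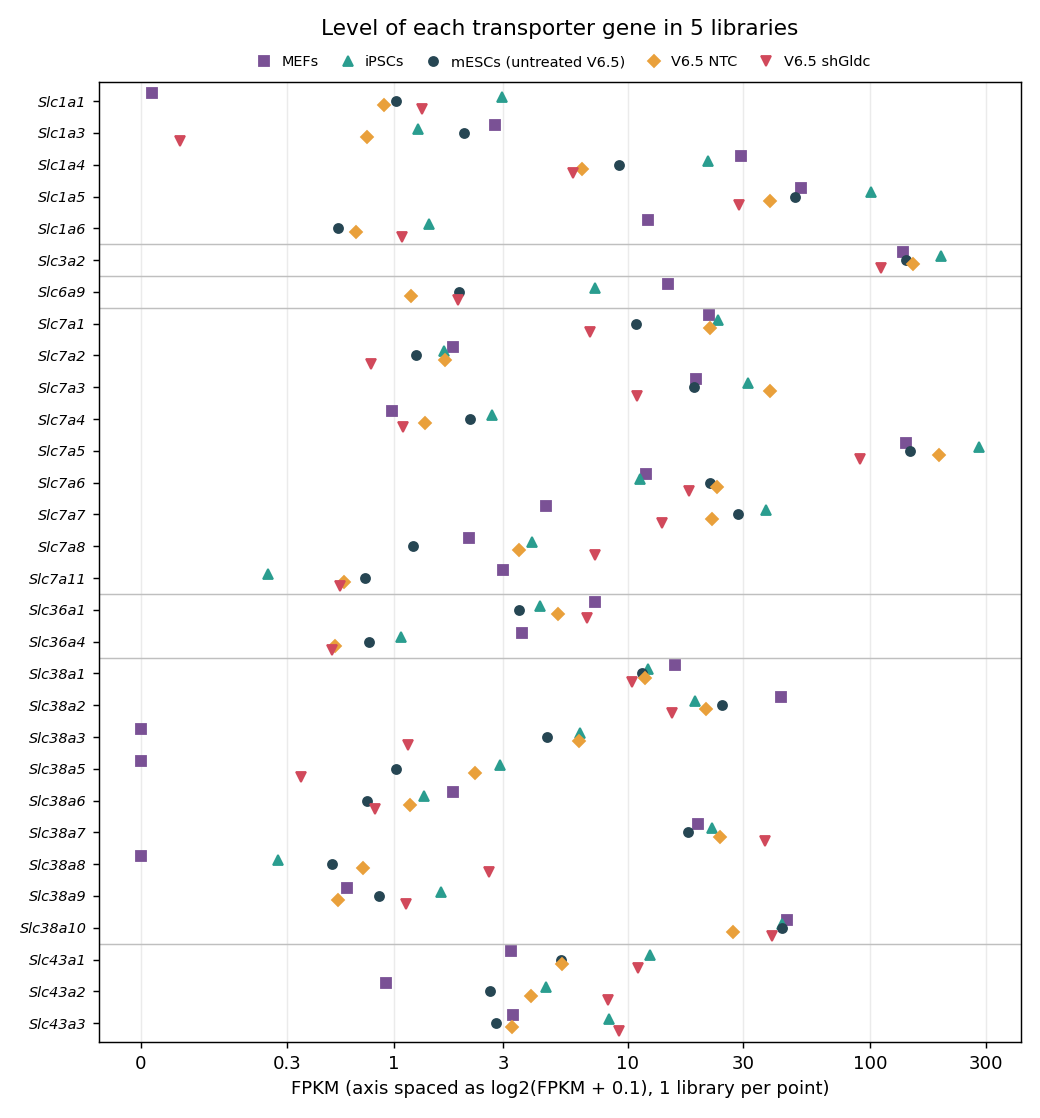
Level of each of the 30 transporter genes that reached 1 FPKM in at least 1 library, with 1 point per library and grey lines between SLC families, on an axis spaced as log2(FPKM + 0.1). Slc7a5 and Slc3a2 lie at the right in all 5 libraries, Slc38a3, Slc38a5 and Slc38a8 lie at 0 in MEFs, and the SLC43 genes have their highest points in iPSCs and shGldc.

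To compare the transporters of pluripotent and somatic cells, mESCs and iPSCs were each set against MEFs. Ratios are differences of log2(FPKM + 0.1), which understate the change of low genes, and only genes that reached 1 FPKM in one or the other library were kept. In mESCs, 6 of 28 kept members were at least 2-fold higher than in MEFs, where 30.3% of all kept genes were, and 7 were at least 2-fold lower, where 23.3% were. The median log2 ratio was -0.19 over the members and 0.25 over all genes. In iPSCs, 9 of 29 members were at least 2-fold higher (31.5% of all genes) and 5 were at least 2-fold lower (21.3%), with medians of 0.18 and 0.31. With ratios centred on the median of all genes, the split was 5 higher and 10 lower in mESCs, and 7 and 7 in iPSCs. These comparisons share the MEF library.

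The same named genes can be read in both stem cell libraries. Slc7a7 was 6.25-fold higher in mESCs (log2 2.62) and 8.18-fold in iPSCs (3.0), Slc43a2 2.85-fold (1.42) and 4.91-fold (2.18), and Slc7a4 2.21-fold (1.07) and 2.74-fold (1.37). The mESC value of Slc7a4 was under 2-fold when centred (0.82) and both its values were with a pseudocount of 1 (0.68 and 0.90). The mESC value of Slc43a2 was also under 2-fold with a pseudocount of 1 (0.92). Slc1a1, Slc38a3 and Slc38a5 were also higher in both, from a MEF level under the floor or listed at 0, which allows no fold. Slc1a6 was lower by a log2 ratio of -4.23 in mESCs and -2.99 in iPSCs, Slc7a11 by -1.88 and -3.21, and Slc36a4 by -2.09 and -1.66. Slc1a6, Slc7a11 and Slc36a4 were thus highest in MEFs. Of the genes with the C/EBP-ATF core, Slc7a11 and Slc1a4 were lower and Slc7a7 was higher in both stem cell libraries than in MEFs, by under 2-fold for Slc1a4 in iPSCs.

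Some members passed 2-fold in a single stem cell library. In mESCs these were Slc6a9 (-2.85), Slc1a4 (-1.68), Slc38a6 (-1.18) and Slc36a1 (-1.04). The iPSC values of these genes were -1.0 (just short of 2-fold), -0.45, -0.40 and -0.75. When centred, Slc6a9 (-1.31) and Slc36a1 (-1.06) passed in iPSCs as well. With a pseudocount of 1, the mESC values of Slc38a6 (-0.69) and Slc36a1 (-0.89) fell short. In iPSCs alone, Slc43a1 (1.90), Slc43a3 (1.31) and Slc38a9 (1.29) were higher and Slc38a2 (-1.18) and Slc1a3 (-1.05) were lower, with mESC values of 0.67, -0.24, 0.44, -0.81 and -0.42. When centred, Slc38a2 also passed in mESCs (-1.05), and the iPSC values of Slc43a3 (0.999) and Slc38a9 (0.98) fell short. With a pseudocount of 1, the iPSC values of Slc38a9 (0.71) and Slc1a3 (-0.72) fell short. No test of these differences can be made from single libraries. The heavy chain Slc3a2 (0.04 and 0.52), Slc7a3 (-0.02 and 0.72), Slc38a7 (-0.14 and 0.18) and Slc38a10 (-0.07 and -0.08) stayed within 2-fold in both.

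**Figure D3:**
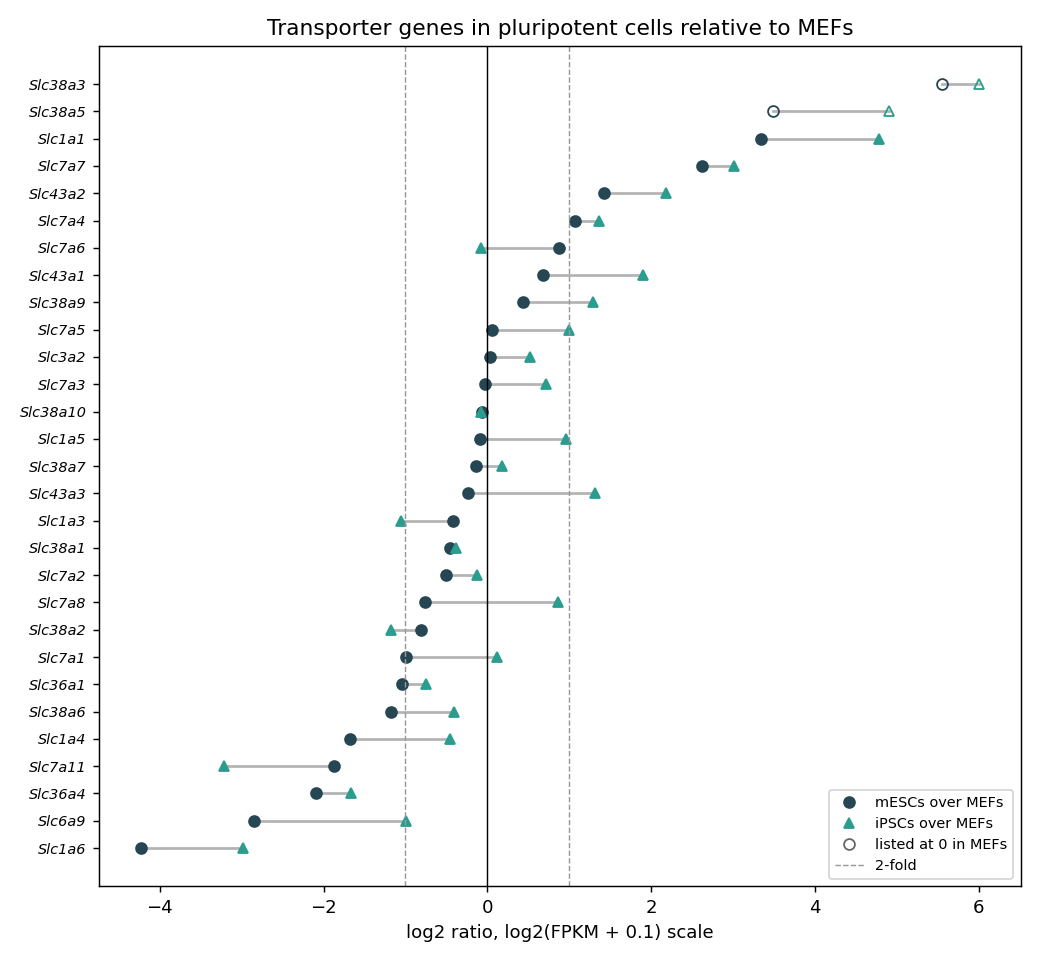
Log2 ratio of each kept transporter gene in mESCs (circles) and iPSCs (triangles) over MEFs, ordered by the mESC value, with dashed lines at 2-fold. Open symbols mark genes listed at 0 in MEFs, whose position is set by the added 0.1, and the lowest circle is Slc1a6 at -4.23 and the lowest triangle Slc7a11 at -3.21.

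The 2 pluripotent lines were then compared with each other. In iPSCs, 10 of 28 members were at least 2-fold higher than in mESCs, where 10.1% of all genes were, and 0 were at least 2-fold lower, where 7.44% were. The median log2 ratio was 0.75 over the members and 0.04 over all genes. Centred on the median of all genes, 9 were higher and 1, Slc7a6, was lower. In SLC1, 4 of 5 kept genes were at least 2-fold higher: Slc1a1 (1.44), Slc1a6 (1.24), Slc1a4 (1.23) and Slc1a5 (1.04). Slc1a5 fell just short when centred, and Slc1a1 (0.97) and Slc1a6 (0.65) fell short with a pseudocount of 1, so Slc1a4 alone passed under each of these settings.

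Slc6a9, the glycine importer, had the largest ratio at 1.85, a 3.74-fold difference in FPKM. LAT2 (Slc7a8, 1.62), Slc43a3 (1.55), Slc38a5 (1.42), Slc43a1 (1.22) and CAT1 (Slc7a1, 1.11) also passed. Of these, Slc38a5 fell short with a pseudocount of 1 (0.95). Slc7a5 came close at 0.94, and Slc7a6 went the other way at -0.96. Slc3a2 (0.48), Slc38a1 (0.07) and Slc38a10 (-0.01) differed little. Values of 2 control V6.5 libraries, NTC over mESCs, can be set beside these although they cross the 2 tables. There, 4 of 25 members were at least 2-fold higher (4.99% of all genes) and 1 was at least 2-fold lower (10.3%). The members were Slc7a8 (1.44), Slc38a5 (1.08), Slc7a3 (1.04) and Slc7a1 (1.01), and Slc1a3 (-1.33). Of the genes that passed in iPSCs, Slc7a8, Slc38a5 and Slc7a1 therefore also passed 2-fold between control V6.5 libraries. Slc6a9 (-0.66), Slc1a4 (-0.49), Slc1a5 (-0.34), Slc1a1 (-0.16), Slc43a1 (0.02), Slc43a3 (0.22) and Slc1a6 (0.24) were nearer or on the other side of 0 there.

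**Figure D4:**
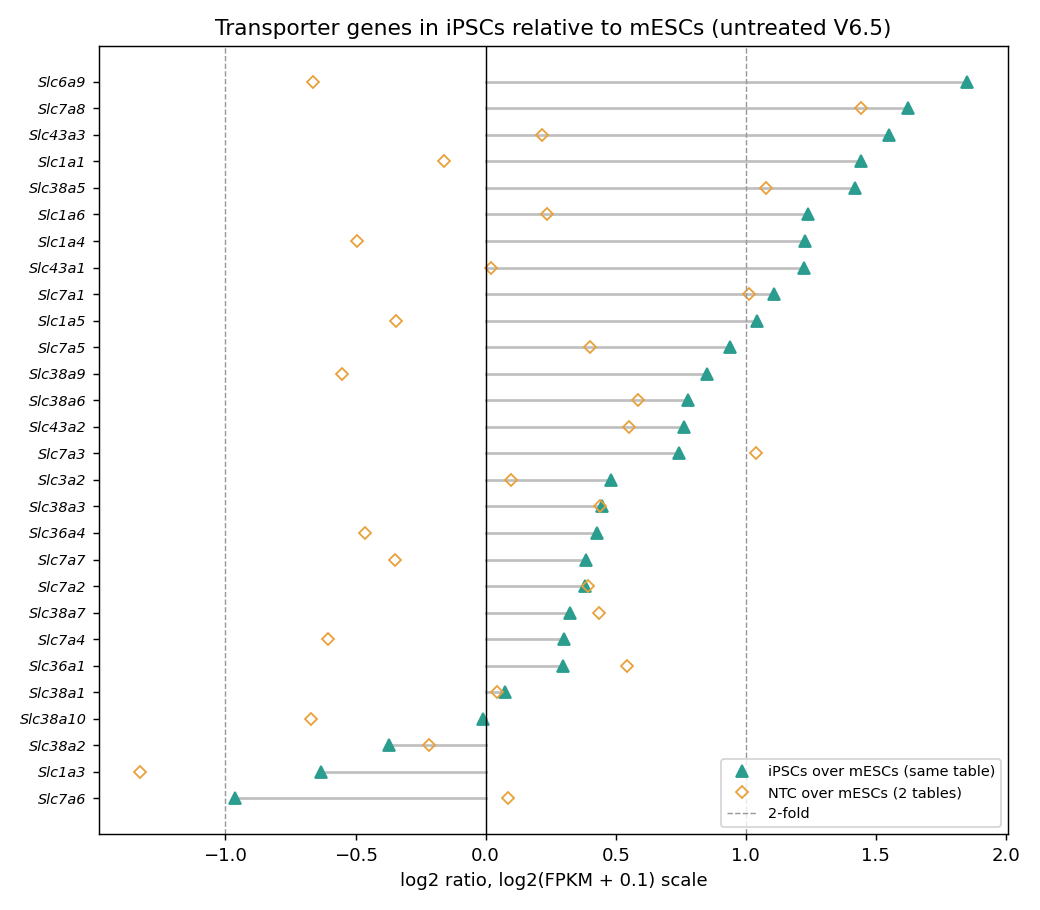
Log2 ratio of each kept transporter gene in iPSCs over mESCs (triangles, same table) and in NTC over mESCs (open diamonds, across the tables), with dashed lines at 2-fold. The triangles reach 1.85 for Slc6a9 and lie mostly right of 0, with Slc7a6 leftmost at -0.96.

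Markers of differentiated cells differed in both directions in this comparison. The 7 trophoblast and simple epithelial markers summed to 478 FPKM in iPSCs and 100.1 in mESCs, mostly through Krt8 at 171 and 9.98 and Krt18 at 234 and 20.8. Of the same list, Tfap2c was at 62.4 and 63.0 FPKM and Eomes at 4.09 and 5.48. The 8 extraembryonic endoderm markers summed to 32.6 and 10.8. The 6 neural markers summed to 25.1 in iPSCs and 78.4 in mESCs, with 4 of 4 kept at least 2-fold lower in iPSCs, and 6 of 8 kept fibroblast markers were lower. Their part in the transporter differences was not tested.

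The knockdown comparison asked how transporter genes stand when Gldc is depleted. In shGldc, 5 of 27 members were at least 2-fold higher than in NTC, where 8.97% of all genes were, and 6 were at least 2-fold lower, where 7.68% were. The median log2 ratio was -0.18 over the members and 0.04 over all genes. In SLC7, 4 of 8 kept genes were at least 2-fold lower and 1 was at least 2-fold higher, and the median was -0.85. In SLC43, 3 of 3 were at least 2-fold higher. The system N genes were both lower, and the 4 kept SLC1 genes all stayed within 2-fold.

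Among the lower genes, Slc38a5 (log2 -2.38, 6.40-fold) and Slc38a3 (-2.33, 5.39-fold) had the largest ratios. The arginine transporters followed, with Slc7a3 at -1.83, Slc7a1 at -1.65 and Slc7a2 at -1.01, and LAT1 (Slc7a5) at -1.09. The LAT1 heavy chain Slc3a2 (-0.43), ASCT2 (Slc1a5, -0.42) and SNAT2 (Slc38a2, -0.47) were lower by less than 2-fold. Slc7a7 was at -0.69, Slc7a6 at -0.38 and Slc7a4 at -0.31. The higher genes were Slc38a8 (1.73), Slc43a3 (1.47), Slc43a2 (1.05), Slc7a8 (1.04) and Slc43a1 (1.03), of which Slc43a1 fell short of 2-fold when ratios were centred. The arginine sensor Slc38a9 was at 0.92, Slc38a7 at 0.62 and Slc36a1 at 0.39, all under 2-fold. The glycine importer Slc6a9 was at 0.64 over NTC and at -0.03 over untreated mESCs, so its direction depends on the control. Slc1a3 was at 0.754 and 0.0453 FPKM and was not kept in this comparison.

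Untreated mESCs give another control for the knockdown, across tables. Against them, 6 of 27 members in shGldc were at least 2-fold higher (9.89% of all genes) and 4 were at least 2-fold lower (13.9%). The SLC43 genes were at 1.69 (Slc43a3), 1.61 (Slc43a2) and 1.06 (Slc43a1), Slc38a8 at 2.14, Slc7a8 at 2.48 and Slc38a7 at 1.05, all at least 2-fold higher. Slc38a3 (-1.89) and Slc38a5 (-1.30) were at least 2-fold lower, as were Slc1a3 (-3.88) and Slc7a7 (-1.04). The Slc1a3 ratio rests on 0.0453 FPKM in shGldc. The depth of that library is not settled, so whether this value reaches the floor of 3 fragments is not known. Slc7a3 (-0.78), Slc7a5 (-0.68), Slc7a1 (-0.64) and Slc7a2 (-0.62) were no longer 2-fold lower. NTC lay above mESCs for these 4, by 1.04, 0.40, 1.01 and 0.39. So the 2-fold size of the lower SLC7 values holds against NTC only, while the SLC43 and system N values passed 2-fold against both controls. Both comparisons use the same single shGldc library, so the second is no independent support for the first. With a pseudocount of 1, Slc43a1 (0.93), Slc43a2 (0.91), Slc7a8 (0.88) and Slc7a2 (-0.59) did not pass 2-fold against NTC. NTC and mESCs also differed in markers: 6 of 8 kept fibroblast markers were at least 2-fold lower in NTC (median -4.14), Sox1 was at -2.33 and Cdx2 at 3.88. The part of these, of the control shRNA and of the separately made tables in the distance between NTC and mESCs cannot be told apart.

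**Figure D5:**
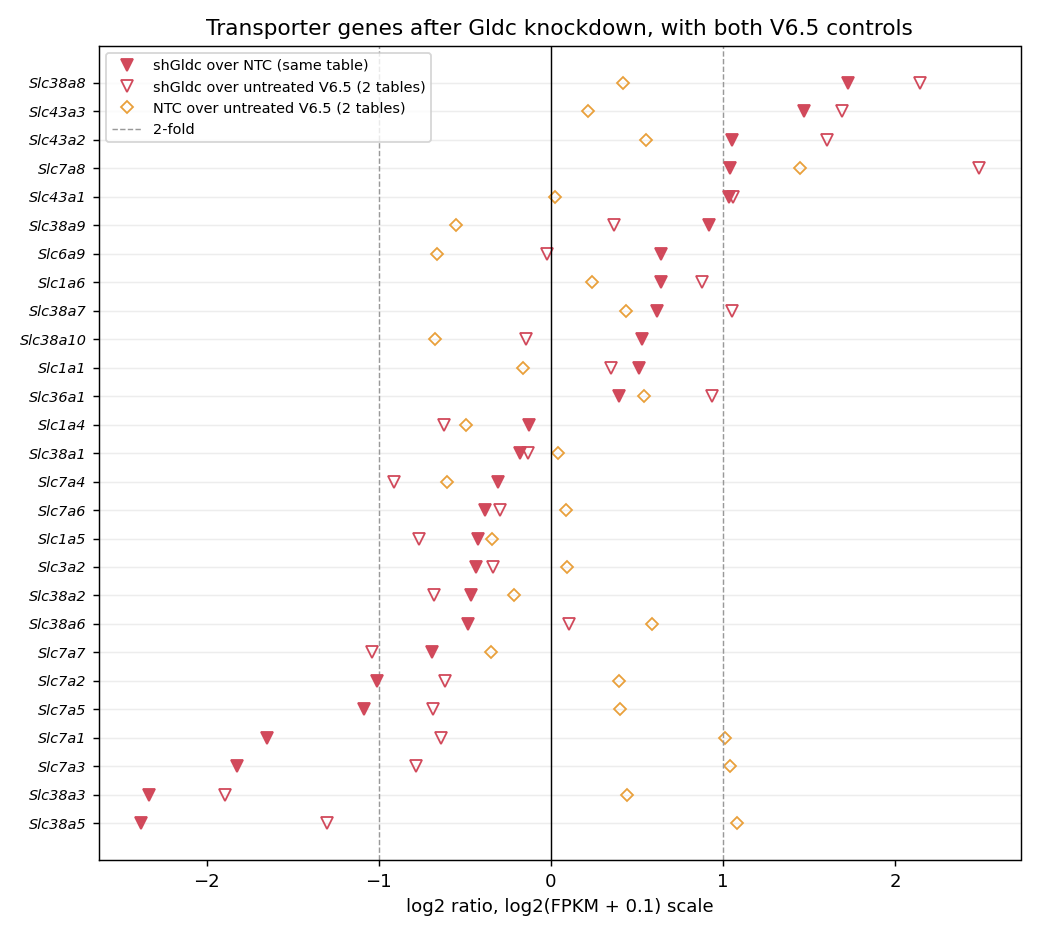
Log2 ratio of each kept transporter gene in shGldc over NTC (filled triangles), in shGldc over untreated V6.5 cells (open triangles) and in NTC over untreated V6.5 cells (diamonds), ordered by the first, with dashed lines at 2-fold. The SLC43 genes, Slc7a8 and Slc38a8 lie right of the 2-fold line for both controls, and Slc38a3 and Slc38a5 lie left of it for both, whereas Slc7a1, Slc7a2, Slc7a3 and Slc7a5 pass it against NTC only.

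Markers of other cell types also differed between these libraries. The trophoblast and simple epithelial list summed to 80.5 FPKM in NTC and 258 in shGldc, with 5 and 6 of 7 markers at 1 FPKM or more. Tfap2c was at 45.8 and 38.4 FPKM, and Cdx2 was at 5.41 and 33.3 FPKM, Krt8 at 9.09 and 79.4, and Krt18 at 11.9 and 95.4. The extraembryonic endoderm list summed to 15.1 and 34.7, with 2 and 5 of 8 markers at 1 FPKM or more and Gata6 at 0.462 and 8.22. Pluripotency markers summed to 4295 and 3753, with 8 of 8 present in both and a median log2 ratio of -0.56. Dppa5a was higher (1440.4 and 1792 FPKM) and the other 7 were lower, all by less than 2-fold. iPSCs and shGldc, the libraries with the highest SLC43 levels, also had the highest trophoblast and simple epithelial list sums, mostly through Krt8 and Krt18. Of that list, Gata3 was likewise highest in iPSCs and shGldc, but Cdx2 was at 3.34 FPKM in iPSCs and 5.41 in NTC. Tfap2c was not higher in iPSCs than in mESCs or in shGldc than in NTC. Among the stem cell libraries, the extraembryonic endoderm list sums were also highest in iPSCs (32.6) and shGldc (34.7). The part of any such cells in the SLC43 values was not tested.

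Known targets of the amino acid stress response, which include enzymes of serine, asparagine and proline synthesis, were read from a list of 30 genes. In iPSCs over mESCs, 15 of 29 were at least 2-fold higher (10.1% of all genes) and 0 lower (7.44%), with a median of 1.02. Fgf21 (3.50) and Cth, which makes cysteine (3.36), were highest, and Phgdh and Wars (both -0.05) were lowest. In shGldc over NTC, 4 of 28 were at least 2-fold higher (8.97% of all genes) and 2 lower (7.68%), with a median of -0.08. Atf3 (3.94) and Ddit3 (1.64), both stress-induced transcription factors, were highest there, and Aldh18a1 of proline synthesis (-1.01) and Cth (-1.0) were lowest. Against untreated mESCs, across tables, these were at 0.43 (Atf3), 0.44 (Ddit3), -1.33 (Aldh18a1) and 0.06 (Cth), so of the 4 only Aldh18a1 differed 2-fold from both controls. Atf3 was at 0.180 FPKM in NTC, 3.08 in mESCs and 4.19 in shGldc. In mESCs over MEFs, 1 was higher (30.3% of all genes) and 12 of 30 were lower (23.3%), from Atf5 (-5.04) and Ddit3 (-3.97) to Pycr1 (0.77) and Cbs (4.94). In iPSCs over MEFs, 5 were higher and 3 lower (31.5% and 21.3% of all genes), or 4 and 5 when centred. Vldlr (-2.50) and Atf5 (-2.01) were lowest and Cth (2.57) and Cbs (5.37) highest.

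Genes of amino acid sensing upstream of mTORC1 were read from a list of 33, of which 30 were in the tables, and are set beside the same shares of all genes. In iPSCs over mESCs, 1 was at least 2-fold higher (10.1% of all genes) and 0 lower (7.44%). Fnip1 (1.34) and Flcn (0.81) were highest and Sesn1 and Rragb (both -0.89) lowest. In shGldc over NTC, 2 were higher (8.97% of all genes) and 1 lower (7.68%). Rragd (1.48) and Flcn (1.08) were highest in shGldc, and Rragb (-1.12) and Nprl2 (-0.60) were lowest. Rragb and Rragd encode Rag GTPases, and Flcn encodes a regulator of them. Against MEFs, 10 were higher and 2 lower in mESCs (30.3% and 23.3% of all genes), or 4 and 4 when centred. Rragb (3.44) and Wdr59 (1.67) were highest there, and Rragc (-2.54) and Fnip1 (-1.42) lowest. In iPSCs over MEFs, 4 were higher and 1 lower (31.5% and 21.3% of all genes), or 1 and 4 when centred. Rragb (2.56) and Nprl2 (1.13) were highest, and Rragc (-2.08) and Sec13 (-0.82) lowest.

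Of 22 listed carriers of mitochondria, lysosomes and vesicles, 21 were in the tables and 15 were kept in shGldc over NTC, with 1 higher (8.97% of all genes), 1 lower (7.68%) and a median of -0.13. The lysosomal cationic amino acid exporter Pqlc2 (1.39) and the cystine exporter Ctns (0.94) were highest, and the vesicular glutamate carrier Slc17a7 (-1.57) and the mitochondrial serine carrier Sfxn1 (-0.99) were lowest. In iPSCs over mESCs, 2 of 16 were higher (10.1% of all genes) and 2 lower (7.44%), with a median of -0.18. Slc32a1 (2.66), a vesicular carrier of GABA and glycine, and Ctns (1.21) were highest, and Slc17a7 (-1.02) and the mitochondrial ornithine carrier Slc25a15 (-1.01) lowest. Of 14 other plasma membrane carriers, 5 were kept in shGldc over NTC, with 0 higher (8.97% of all genes) and 2 lower (7.68%). Slc6a15 (-2.33) and Slc15a1 (-1.27), a neutral amino acid and a peptide transporter, were lowest, and Slc6a8 (0.26) and Slc6a6 (-0.38) highest. In iPSCs over mESCs, 1 of 5 kept was higher (10.1% of all genes), the creatine transporter Slc6a8 (1.72), with 0 lower (7.44%). Slc15a1 (0.59) followed, and Slc15a2 (-0.75) and Slc6a6 (-0.58) were lowest.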

How the data were processed

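Libraries were prepared from total RNA with a NEBNext Ultra kit, and the study's methods name mapping to mm10 by TopHat2, assembly by StringTie and Ballgown. The submitters' processing notes list TopHat2 2.1.0, StringTie 1.3.4d and SAMtools 1.7, and name mm9 beside mm10. The annotation and the strand setting are not given in the sources used here. The authors deposited FPKM values, which correct for transcript length and depth but not for the composition of the RNA, in 2 tables of 24421 genes.

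Log2 ratios were differences of log2(FPKM + 0.1) between single libraries, kept for genes at 1 FPKM or more in at least 1 library compared, and a 2-fold difference was the call. Counts and medians of members stand beside those of all genes. Ratios over untreated V6.5 cells of the second table's libraries cross the tables. With 1 library per group no test was run, and precision is limited to counting error. The members and lists were chosen with earlier results of these data known. Each member is named with its level in all libraries, or in a count where it stayed under 1 FPKM, and of other gene lists the 2 highest and 2 lowest ratios are named in each comparison described. Marker genes given singly were chosen after their values were seen. Depth came from steps between low FPKM values times length, with 3 fragments as the floor. Positions, overlaps and shared 50-nt stretches were taken from GENCODE M21, to which all 43 members matched by symbol, and promoters from RefSeq GRCm38.p6. The tools were matplotlib 3.10.9 for figures and pandas 2.3.3 with numpy 2.4.6 and scipy 1.17.1 for tables, under Python 3.11.15. Alternatives were pseudocounts of 0.01 and 1, libraries scaled to the same FPKM sum, centring on the median of all genes, no filter or a filter of 5 FPKM, leaving out members that overlap another gene or share over 10% of their 50-nt stretches with others, and untreated V6.5 cells as the knockdown control.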

Additional observations from a re-analysis of the deposited data

How the results depend on the processing

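The median of the members in iPSCs over MEFs changed sign, from 0.18 to -0.12 with libraries scaled to the same FPKM sum and to -0.13 when centred. No member ratio of 2-fold or more changed sign under the alternatives run. Smaller ratios changed sign for Slc3a2 and Slc7a5 in mESCs over MEFs and Slc7a1 and Slc38a7 in iPSCs over MEFs with either scaling, and for Slc6a9, Slc38a6 and Slc38a10 in the knockdown when set against untreated V6.5 cells. In mESCs over MEFs, the 6 higher members became 10 without a filter, 1 at 5 FPKM and 2 without members that overlap another gene or share over 10% of their 50-nt stretches, and the 7 lower became 4 at 5 FPKM and 4 without those members. In iPSCs over MEFs, the 9 higher became 4 at 5 FPKM and 4 without those members, and the 5 lower became 2 and 3. In iPSCs over mESCs, the 10 higher became 6 at 5 FPKM, and the 0 lower became 1 with either scaling and 2 without a filter. In shGldc over NTC, the 5 higher became 2 with a pseudocount of 1. Fewer genes enter at 5 FPKM and in the shorter member list, and a larger pseudocount shrinks ratios of low genes. With untreated V6.5 cells as the knockdown control, 20 of 27 members moved by less than 0.59, a robust SD taken over 12048 genes between NTC and untreated cells, 7 moved more and 6 crossed 2-fold. Each move equals the member's own ratio of NTC over untreated cells, the same quantity that gave this SD. The count therefore does not measure how stable the knockdown ratios are.

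With the other 24 members, which leave out Slc7a5, the family shares of the summed FPKM were, in MEFs, iPSCs, mESCs, NTC and shGldc, 24.6, 25.9, 18.1, 12.5 and 12.6% for SLC1, 35.9, 40.9, 43.3, 41.2 and 39.0% for SLC3, 14.4, 14.7, 16.3, 24.1 and 15.3% for SLC7, and 2.86, 1.13, 1.32, 1.66 and 2.56% for SLC36. SLC38 and SLC43 also had members in this shorter list, and their shares are not given here. Slc7a5 was left out for an overlap with Gm20388 that covers 0% of its exon length. Single libraries and unsettled depth in NTC and shGldc limit each value. No paired analysis was possible because each group held 1 library and the labels give no replicate numbers.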
